A study of Mus musculus with 40 samples.

Results

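The genes described here are those of 10 proteins of the cardiac and skeletal muscle triad, taken by symbol from 23420 gene symbols counted in the hearts of mice that overexpress the microRNA miR-378a. They are the ryanodine receptors Ryr1, Ryr2 and Ryr3, the L-type calcium channel subunits Cacna1c and Cacna1s, the calsequestrins Casq1 and Casq2, triadin (Trdn) and the junctophilins Jph1 and Jph2. All 10 were counted and all 10 passed the filter on low counts in both kinds of library, Ryr1 through the hearts that overexpress miR-378a. The hearts came from FVB/N mice, given as male and 12 weeks old, that were non-transgenic (ntg) or carried the miR-378a transgene (TG). There were 3 ntg and 3 TG hearts with the sham label, which the authors' combined tables name nosurg so that a sham operation is not settled, and 7 ntg and 7 TG hearts after 2 weeks of transverse aortic constriction (TAC), a pressure overload of the left ventricle. Coronal sections without the right ventricle were used. From each of the 20 hearts polyadenylated RNA was sequenced (mRNA library), and so was the RNA recovered with immunoprecipitated Ago2, the protein that carries microRNAs in the silencing complex (RISC library). The promoter that drives the transgene is not given in the sources used here.

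Contraction of striated muscle starts where the plasma membrane folds into T-tubules and meets the junctional sarcoplasmic reticulum. An L-type channel in the T-tubule senses the action potential, a ryanodine receptor in the opposite membrane releases stored calcium, calsequestrin holds that calcium inside the store, triadin links calsequestrin to the receptor, and junctophilin holds the membranes together. The heart mainly uses Cacna1c, Ryr2, Casq2 and Jph2, while skeletal muscle mainly uses Cacna1s, Ryr1 and Casq1, and Jph1 alongside Jph2. In skeletal muscle the L-type channel opens the receptor by direct contact, and in the heart calcium entering through the channel opens it.

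Depth ran from 9.98 to 25.5 M gene counts per mRNA library and from 7.55 to 25.4 M per RISC library, of which the ribosomal precursor Rn45s took 48.5% to 62.3%, leaving 3.49 to 10.6 M. Every mouse is given as male, but Xist, the RNA of the inactive X chromosome, stood at 117 to 142 CPM (counts brought to a common scale with TMM) in the 6 sham mRNA libraries and at 1.03 to 3.48 in the 14 TAC libraries. The summed level of 4 Y-linked genes was 0.216 to 4.88 CPM in sham and 79.9 to 122 CPM in TAC mRNA libraries. The sham values go against the male label and the TAC values do not. The sham and TAC hearts therefore differ in these sex-linked RNAs as well as in aortic constriction. These cannot be told apart in any TAC against sham comparison, nor where the TG effect in TAC hearts is set against that in sham hearts. TG against ntg was compared within the sham and within the TAC hearts. The precursor gene Mir378 was counted 0 times in every library, which allows up to 3 counts in each, so these counts do not measure the transgene product.

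Promoters are shown for the 4 genes whose difference between TG and ntg mRNA had the same direction and passed the test in sham and in TAC hearts. The sequences are RefSeq's on GRCm38.p6, from 250 bases before to 50 bases after the annotated start, on the strand of the gene. Capitals mark matches, on either strand, to the E-box CANNTG, 1 form of the MEF2 motif (CTA and TAG with 4 free bases between), the M-CAT motif CATTCC or the motif TATAAA. These are elements known from muscle promoters and were chosen after the sequences had been seen. Other forms of the MEF2 motif were not searched for, so lower case does not mean that a window lacks a MEF2 site. The regions are chr7:29125102-29125401 (minus strand) for Ryr1, chr1:136052561-136052860 (plus) for Cacna1s, chr2:163397944-163398243 (minus) for Jph2 and chr3:102086165-102086464 (plus) for Casq2.
Ryr1: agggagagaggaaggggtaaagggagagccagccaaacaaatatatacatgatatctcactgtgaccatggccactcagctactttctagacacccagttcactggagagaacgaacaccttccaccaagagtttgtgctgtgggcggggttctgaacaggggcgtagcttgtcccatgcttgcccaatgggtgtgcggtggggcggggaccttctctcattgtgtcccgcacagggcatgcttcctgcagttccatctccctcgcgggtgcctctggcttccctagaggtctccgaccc
Cacna1s: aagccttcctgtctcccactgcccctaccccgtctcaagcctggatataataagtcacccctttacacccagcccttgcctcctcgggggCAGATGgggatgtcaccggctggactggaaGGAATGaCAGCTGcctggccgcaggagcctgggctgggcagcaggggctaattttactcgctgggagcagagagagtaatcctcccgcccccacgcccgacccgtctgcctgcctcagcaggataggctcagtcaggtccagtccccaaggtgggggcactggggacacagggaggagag
Jph2: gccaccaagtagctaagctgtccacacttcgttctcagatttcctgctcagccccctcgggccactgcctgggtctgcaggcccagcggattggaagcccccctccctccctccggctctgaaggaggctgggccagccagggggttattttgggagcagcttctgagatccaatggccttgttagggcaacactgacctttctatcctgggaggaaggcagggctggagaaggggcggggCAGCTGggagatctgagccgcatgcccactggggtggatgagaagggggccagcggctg
Casq2: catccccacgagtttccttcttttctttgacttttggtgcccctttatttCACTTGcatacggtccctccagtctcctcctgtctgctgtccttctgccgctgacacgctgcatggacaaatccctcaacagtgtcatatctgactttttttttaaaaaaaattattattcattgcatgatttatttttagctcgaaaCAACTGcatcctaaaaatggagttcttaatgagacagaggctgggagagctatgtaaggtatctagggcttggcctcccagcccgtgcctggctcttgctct
The Ryr1 window had 0 matches to the 4 motifs. The Cacna1s window held 2 E-boxes and 1 M-CAT motif, the Casq2 window 2 E-boxes and the Jph2 window 1 E-box. Of all 32851 mouse promoters in the same table, 72.3% held an E-box, 14.7% the M-CAT motif, 13.6% TATAAA and 3.69% this form of the MEF2 motif. None of the 4 motifs was found in all 3 windows of the genes that rose.

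Among the release channels, the skeletal form Ryr1 (mm10 chr7:29003340-29125151, minus strand) was near the floor of the mRNA libraries in ntg hearts and well counted in TG hearts. Its TMM-normalized level in the 3 ntg sham hearts was 0.192, 0.324 and 0.452 CPM, and in the 3 TG sham hearts 6.93, 7.89 and 4.85 CPM. In TAC hearts it ranged from 0.183 to 0.679 CPM in ntg (median 0.282) and from 1.80 to 5.03 CPM in TG (median 3.35). Every TG heart was above every ntg heart. The log2 fold change, TG over ntg, was 4.31 in sham (SE 0.47, adjusted p = 1.01e-06) and 3.38 in TAC (SE 0.30, adjusted p = 1.39e-08), by the quasi-likelihood test of edgeR, with p adjusted over all tested genes by Benjamini-Hochberg. The ntg side rests on 10 counts in the 3 sham and 35 in the 7 TAC hearts. Ryr1 passed the filter on low counts through its TG libraries, as no ntg mRNA library held more than 8 counts. Its calls in TG against ntg were kept when no gene was filtered. A change in the RNA of each cell and a change in the number of cells carrying it cannot be told apart in these bulk samples.

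Ryr2 (chr13:11553103-12106945, minus strand), the release channel of the working heart, was far more abundant. The ntg sham hearts had 2425, 2503 and 2359 CPM and the TG sham hearts 1918, 2135 and 1894 CPM in mRNA, and these groups did not overlap. Ryr2 fell by 0.29 on the log2 scale in TG sham hearts (SE 0.09, adjusted p = 0.0242). That call rests on single hearts: the adjusted p was 0.0622 without ntg sham replicate 1, 0.0766 without ntg sham replicate 2, 0.0833 without TG sham replicate 1 and 0.0951 without TG sham replicate 3. It was also lost when no gene was filtered (0.0546) and when the mean log2 level of adipocyte markers was a covariate (adjusted p = 0.340, with a log2 difference of -0.21 and an SE of 0.12). The summed adipocyte markers did not overlap between ntg and TG sham hearts, so that fit cannot separate their level from genotype. In TAC hearts the ranges overlapped, 1695 to 2053 CPM in ntg (median 1878) and 1590 to 1900 in TG (median 1720), with a log2 difference of -0.13 (SE 0.06, adjusted p = 0.110).

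Ryr3 (chr2:112631382-113030331, minus strand), a low-level form of many tissues, rose in TG hearts after TAC. It stood at 2.17 to 7.39 CPM in ntg TAC hearts (median 4.90) and at 7.21 to 14.8 CPM in TG TAC hearts (median 11.2). The lowest TG heart lay just under the highest ntg heart, and the log2 fold change was 1.11 (SE 0.22, adjusted p = 0.00103). In sham hearts the values were 4.70, 2.48 and 3.52 CPM in ntg and 6.11, 6.12 and 3.77 CPM in TG. These overlapped, and the log2 difference of 0.59 (SE 0.39) did not pass the test (adjusted p = 0.320). It did pass with the adipocyte level as a covariate, at 1.39 (adjusted p = 0.0473), a fit that cannot separate that level from genotype.

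**Figure D1:**
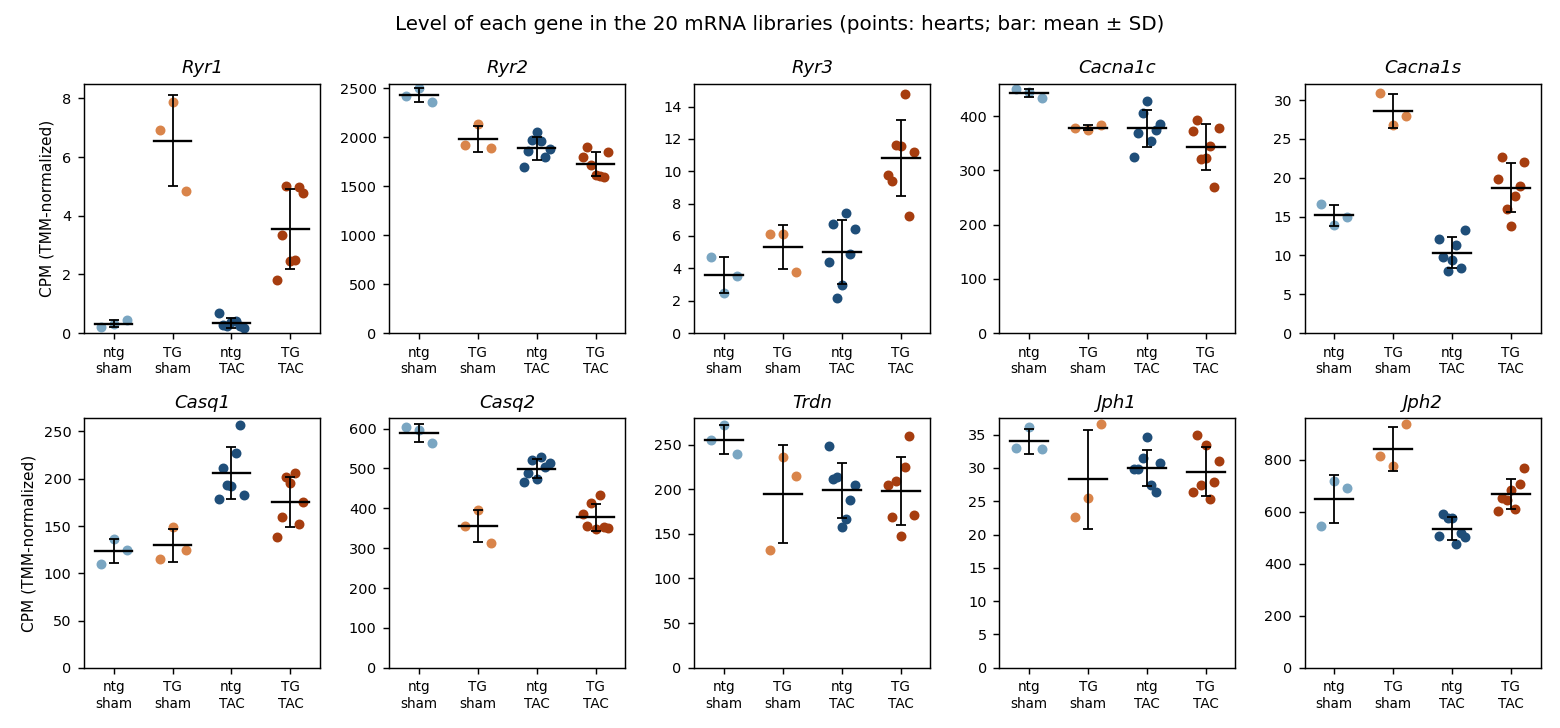
Level of the 10 genes in the 20 mRNA libraries, in TMM-normalized CPM on linear axes that start at 0, by genotype and by sham or TAC label. Points are hearts and bars are the mean ± SD of 3 sham or 7 TAC hearts; Ryr1 and Cacna1s sit higher and Casq2 lower in TG than in ntg hearts under either label.

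Of the L-type channels, the skeletal form Cacna1s (chr1:136052901-136119822, plus strand), the voltage sensor of the skeletal triad, rose in TG hearts in the sham and in the TAC comparison. Its mRNA level was 16.6, 13.9 and 15.0 CPM in ntg sham and 31.0, 26.8 and 27.9 CPM in TG sham hearts. After TAC it was 8.00 to 13.3 CPM in ntg (median 9.80) and 13.8 to 22.7 CPM in TG (median 18.9). The groups did not overlap in either comparison, and the log2 fold changes were 0.91 in sham (SE 0.17, adjusted p = 0.000702) and 0.86 in TAC (SE 0.11, adjusted p = 7.3e-06). The cardiac form Cacna1c (chr6:118592296-119196409, minus strand), the pore of the heart's main calcium current, did not pass the test in mRNA. It stood at 449, 445 and 433 CPM in ntg sham and 379, 375 and 383 CPM in TG sham hearts, which did not overlap, with a log2 difference of -0.22 (SE 0.11, adjusted p = 0.166). In TAC hearts the difference was -0.14 (SE 0.07, adjusted p = 0.174).

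In the store, the cardiac calsequestrin Casq2 (chr3:102086455-102146512, plus strand) fell in TG hearts. The ntg sham hearts had 605, 597 and 564 CPM in mRNA and the TG sham hearts 357, 396 and 314 CPM. After TAC the ranges were 466.5 to 529 CPM in ntg (median 503) and 349 to 433 CPM in TG (median 357). All TG hearts lay below all ntg hearts with the same label. Casq2 fell by 0.73 in sham (SE 0.09, adjusted p = 7.71e-06) and by 0.40 in TAC hearts (SE 0.06, adjusted p = 3.72e-05), on the log2 scale. The skeletal calsequestrin Casq1 (chr1:172209894-172219895, minus strand) differed by 0.07 in sham (SE 0.15, adjusted p = 0.781) and -0.23 in TAC hearts (SE 0.10, adjusted p = 0.0800), TG over ntg. The TAC value passed the test without TG TAC replicate 3 (adjusted p = 0.0471) or without TG TAC replicate 5 (0.0462). Triadin (Trdn, chr10:33083483-33476709, plus strand) differed by -0.40 in sham (SE 0.21, adjusted p = 0.192) and by 0.00 in TAC hearts (SE 0.13, adjusted p = 0.987). The TG sham hearts spread from 132 to 236 CPM, below the ntg sham hearts at 239 to 272 CPM.

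Of the junctophilins, Jph2 (chr2:163336242-163397993, minus strand), the cardiac tether, rose in TG hearts. Its mRNA level was 544, 717 and 690 CPM in ntg sham and 816, 776 and 937 CPM in TG sham hearts. After TAC it was 476 to 591 CPM in ntg (median 518) and 601 to 767 CPM in TG (median 654). Neither comparison overlapped, and the log2 fold changes were 0.37 in sham (SE 0.11, adjusted p = 0.0208) and 0.32 in TAC (SE 0.07, adjusted p = 0.0024). The sham call was lost without ntg sham replicate 1 (adjusted p = 0.147), without TG sham replicate 3 (0.116) and with the adipocyte level as a covariate (0.144), where the log2 fold change was 0.39 and the SE 0.16. That last fit cannot separate the adipocyte level from genotype. Jph1 (chr1:16994940-17097889, minus strand), which skeletal muscle uses alongside Jph2, differed by -0.27 in sham (SE 0.14, adjusted p = 0.194) and -0.03 in TAC hearts (SE 0.09, adjusted p = 0.857). Without TG sham replicate 3 the sham difference was -0.50 and passed (adjusted p = 0.0141).

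In all, 3 of the 10 genes rose and 2 fell in TG sham mRNA, where 18.6% of 14141 tested genes passed (9.17% higher and 9.41% lower), and 4 rose and 1 fell in TG TAC mRNA, where 25.3% passed (13.5% higher and 11.8% lower). The median log2 difference of the 10 genes was -0.08 in sham and -0.02 in TAC hearts, beside -0.01 and 0.00 over all genes, and the median size of the difference was 0.39 and 0.27 beside 0.23 and 0.16. The sham count dropped to 3 without ntg sham replicate 1. Casq2, Ryr1, Cacna1s and Jph2 passed in sham and in TAC hearts. Whether the TG effect differed between TAC and sham was tested directly. Since the TAC and sham hearts also differ in sex-linked RNA, such a difference could not be assigned to TAC alone, in mRNA or in RISC libraries. By edgeR 0 of the 10 genes passed in mRNA, where 12 genes (0.0849%) passed in all, and 0 passed by DESeq2. At an unadjusted p below 0.05 there was 1, Casq2, whose fall was smaller in TAC by 0.32 (SE 0.11, unadjusted p = 0.00843, adjusted p = 0.305). For Ryr1 the difference was -0.93, with an interval of 2 SE from -2.29 to 0.43.

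**Figure D2:**
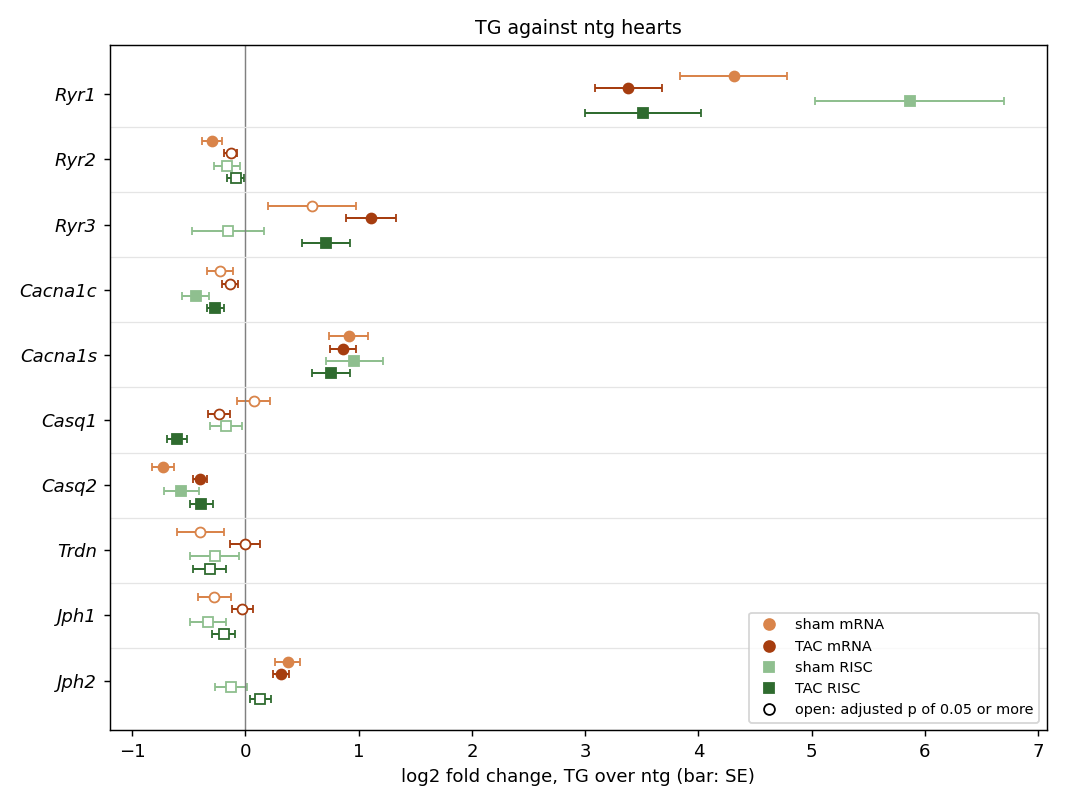
Log2 fold change, TG over ntg, of the 10 genes in sham and TAC hearts, in mRNA (circles) and RISC libraries (squares), with bars of 1 SE. Filled symbols passed an adjusted p of 0.05; Ryr1 stands apart at 3.38 to 5.86, Cacna1s lies between 0.76 and 0.96, and Casq2 between -0.73 and -0.39.

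Each skeletal form was also set against its cardiac partner within a library, as counts per kilobase of exon, the scale on which genes can be compared. Per kilobase, Ryr1 was 0.00866% to 0.0210% of Ryr2 in ntg sham and 0.280% to 0.404% in TG sham mRNA libraries. Cacna1s was 4.53% to 5.34% of Cacna1c in ntg sham and 10.3% to 11.8% in TG sham libraries. Casq1 was 24.4% to 30.5% of Casq2 in ntg sham and 43.5% to 53.2% in TG sham libraries. These 3 ratios were higher in every TG sham heart than in any ntg sham heart, with Ryr1 still a small fraction of Ryr2. The Casq1 to Casq2 ratio was higher with Casq2 lower, since the Casq1 level itself did not pass the test. The ratio of Jph1 to Jph2 was lower, 2.45% to 3.46% in TG sham against 4.21% to 5.37% in ntg sham libraries. The Jph1 to Jph2 ratios overlapped in TAC hearts, at 4.47% to 5.38% in ntg and 3.49% to 4.74% in TG. In TAC hearts the Cacna1s to Cacna1c ratio was 2.85% to 5.42% in ntg and 6.203% to 10.2% in TG, and the Casq1 to Casq2 ratios overlapped, at 47.9% to 68.4% and 48.3% to 75.3%. Ryr3 was 0.108% to 0.212% of Ryr2 in ntg sham and 0.217% to 0.347% in TG sham libraries. After TAC it was 0.120% to 0.411% in ntg and 0.495% to 1.01% in TG libraries. The ratios are descriptions and carry no test. Groups of 3 hearts can separate without a real difference, so a lack of overlap in sham hearts is only a description, here and for the levels.

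**Figure D3:**
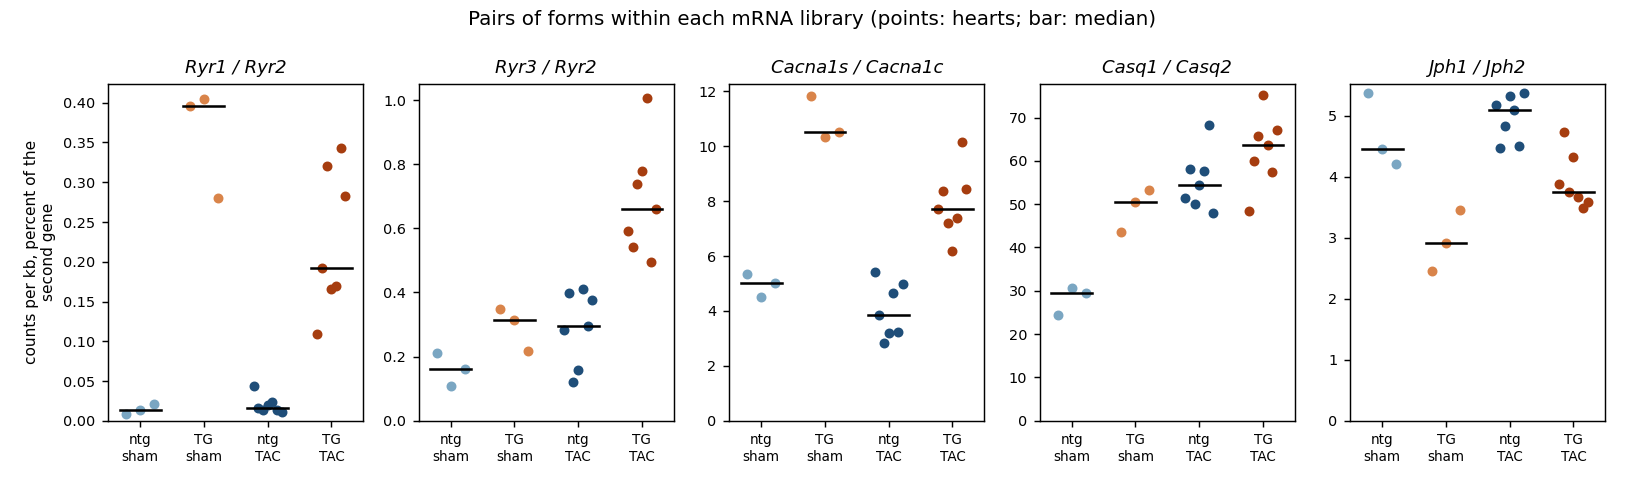
Counts per kilobase of one form as a percentage of its partner in each of the 20 mRNA libraries, on linear axes that start at 0. Points are hearts and lines are medians; Cacna1s reached 10.3% to 11.8% of Cacna1c in TG sham hearts, against 4.53% to 5.34% in ntg sham hearts.

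RNA of other skeletal muscle genes was measured beside these forms. The summed level of 12 skeletal muscle markers in mRNA was 68.1 to 131 CPM in ntg sham, 220 to 367 in TG sham, 79.5 to 195 in ntg TAC and 230 to 396 in TG TAC hearts. Nearly all of it was Myl1, a fast skeletal myosin light chain, which rose by 1.54 in sham (SE 0.33, adjusted p = 0.00349) and 1.403 in TAC hearts (SE 0.21, adjusted p = 0.000119) on the log2 scale. The other 11 markers each stayed at or below 2.52 CPM in every library, and Myog was at 0 in all 6 sham mRNA libraries. Of the 6 markers that could be tested in mRNA, 1 passed, Myl1. Adipocyte markers moved with genotype in sham hearts as well, at a summed 934 to 1156 CPM in ntg and 384 to 490 CPM in TG mRNA libraries. There 7 of 10 were lower and 0 higher, beside 9.41% lower and 9.17% higher over all tested genes. In TAC hearts the sums were 532 to 872 CPM in ntg and 467 to 633 CPM in TG, which overlapped. Of the 10, 3 were lower and 0 higher there, beside 11.8% and 13.5%. The sums did not overlap in sham hearts, so the fit with the adipocyte level as a covariate cannot separate it from genotype there. In that fit the sham changes of Ryr1, Cacna1s and Casq2 kept their calls. The part of the adipocyte markers in the results was not tested further. The summed levels in ntg and TG sham hearts were 620 to 812 and 443 to 469 CPM for 7 smooth muscle markers, 352 to 6003 and 524 to 2200 CPM for 5 atrial markers, and 17.6 to 38.7 and 8.71 to 11.6 CPM for 8 neuron and glia markers. In ntg and TG TAC hearts these sums were 495 to 672 and 418 to 765, 782 to 7091 and 3490 to 8015, and 8.32 to 29.3 and 9.88 to 30.1 CPM. They overlapped, and 1 atrial and 1 neuron and glia marker were higher in TG TAC mRNA. The 9 cardiomyocyte markers summed to 111309 to 119565 CPM in ntg sham and 86237 to 101871 CPM in TG sham mRNA libraries, without overlap. Of the 9, 1 was higher and 4 were lower, beside 9.17% higher and 9.41% lower over all tested genes. Their sum moved in the direction of the Ryr2 and Casq2 falls and against that of the Jph2 rise. In TAC hearts these 9 markers summed to 88961 to 96225 CPM in ntg and 86829 to 93273 CPM in TG, which overlapped, with 2 higher and 2 lower, beside 13.5% and 11.8% of all tested genes. The part of these marker lists in the results was not tested.

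The profile of Ryr1 over the 20 mRNA libraries was nearest to those of 5 other genes among 12848 with a mean of at least 1 CPM. Likeness was the root mean square difference of log2(CPM + 0.1), each gene centred on its own mean. It was 0.59 for Rnf208, 0.68 for Erc2, 0.70 for Slc24a2, 0.74 for Pcbd1 and 0.75 for Amtn, against a spread of 1.75 of Ryr1 itself. Rnf208 went from a mean of 0.719 CPM in ntg sham to 7.56 in TG sham and from 0.737 in ntg TAC to 3.74 in TG TAC hearts. With ntg means below 1 CPM it met the minimum through its TG hearts. The 5 genes were picked by these same libraries, so their higher level in TG hearts follows from the choice and carries no test. Among the other 9 triad genes the nearest to Ryr1 was Cacna1s, at 1.33.

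The mRNA of proteins that sit with the ryanodine receptor changed in each direction. Of 15 genes of the junctional reticulum and of receptor-binding proteins, 2 rose and 3 fell in TG sham mRNA, and 4 rose and 4 fell in TG TAC mRNA, beside 18.6% and 25.3% of all tested genes. The median log2 difference of the list was 0.04 in sham and 0.06 in TAC hearts. Jsrp1, a skeletal triad protein that binds the L-type channel and calsequestrin, rose by 2.38 in sham (SE 0.46, adjusted p = 0.00075), from 0.254 ± 0.181 to 1.39 ± 0.1304 CPM (SD, n = 3, edgeR), and by 1.17 in TAC hearts (SE 0.21, adjusted p = 0.00025). Sarcalumenin (Srl), a calcium-binding protein of the reticulum, fell by 0.38 in sham (SE 0.08, adjusted p = 0.00232) and by 0.23 in TAC hearts (SE 0.05, adjusted p = 0.00323). Akap6, an anchor of kinases near Ryr2, fell by 0.46 in sham (SE 0.10, adjusted p = 0.003). Asph, whose products include junctin, fell by 0.37 in sham (SE 0.10, adjusted p = 0.00898). In TAC hearts S100a1, a calcium sensor that binds the receptor, rose by 0.29 (SE 0.08, adjusted p = 0.00722), and Calm3, a calmodulin gene, by 0.21 (SE 0.05, adjusted p = 0.00533).

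Other genes of the L-type channel gave 1 call. Of 14 tested genes among 16 of channel subunits and T-tubule proteins, 0 rose and 1 fell in each comparison, where 18.6% (sham) and 25.3% (TAC) of all tested genes passed. It was Cacnb2, the main cardiac beta subunit. It fell by 0.49 in sham (SE 0.12, adjusted p = 0.00727) and by 0.29 in TAC hearts (SE 0.08, adjusted p = 0.0108). The list's median log2 difference was -0.09 in sham and -0.03 in TAC hearts. Of 4 tested genes among the inositol trisphosphate receptors and the other junctophilins, 0 passed in either comparison.

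In the RISC libraries the same forms stood out. Ryr1 had 0, 0 and 2 counts in the 3 ntg sham libraries and 59, 62 and 32 in the TG sham libraries, which is a ratio of 65.7 after scaling to depth, with a 95% exact counting interval of 17.9 to 547 that covers counting error only. In TAC hearts it had 10 counts over 7 ntg libraries and 164 over 7 TG libraries, a ratio of 12.4 (6.59 to 26.4). The test passed in sham (adjusted p = 1.46e-05) and in TAC hearts (adjusted p = 9.92e-06); the fitted log2 fold changes, 5.86 and 3.51, depend on the prior count. On leaving out 1 heart at a time the fitted sham value ran from 5.43 to 8.56, the highest without ntg sham replicate 3, which held the 2 ntg counts, and the call was kept each time. Cacna1s went from 5.35, 4.70 and 4.94 CPM to 11.0, 10.6 and 7.64 CPM in sham hearts, without overlap. Its log2 fold change was 0.96 in sham (SE 0.25, adjusted p = 0.0152) and 0.76 in TAC hearts (SE 0.17, adjusted p = 0.00221), where ntg hearts had 1.94 to 5.92 CPM and TG hearts 5.18 to 8.54 CPM, which overlapped. The sham call was lost without ntg sham replicate 2 or 3 (adjusted p = 0.0641 each) and without TG sham replicate 1 (0.0774) or 2 (0.0656). Ryr3 rose by 0.71 in TAC hearts (SE 0.21, adjusted p = 0.0222), a call lost without TG TAC replicate 7 (0.0568). In sham RISC libraries Ryr3 differed by -0.15 (SE 0.32, adjusted p = 0.859).

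Cacna1c fell in RISC libraries of TG hearts. The values were 240, 201 and 226 CPM in ntg sham and 173, 183 and 136 CPM in TG sham hearts, and 180 to 224 CPM (median 188) and 144 to 175 CPM (median 162) after TAC. The groups did not overlap, and the falls were 0.44 in sham (SE 0.12, adjusted p = 0.0185) and 0.27 in TAC hearts (SE 0.08, adjusted p = 0.0159). The sham call was lost without ntg sham replicate 1 (adjusted p = 0.0885) or 3 (0.0698) or TG sham replicate 3 (0.171), and the TAC call without ntg TAC replicate 7 (0.0533). Casq2 fell by 0.56 in sham (SE 0.16, adjusted p = 0.0245) and by 0.39 in TAC hearts (SE 0.10, adjusted p = 0.00862). Its sham values were 281, 178 and 191 CPM in ntg and 159, 154 and 127 CPM in TG, and without ntg sham replicate 1 the fall was 0.33 (adjusted p = 0.257). The call was also lost without TG sham replicate 2 (0.0569) or 3 (0.147). Casq1 fell by 0.60 in TAC RISC libraries (SE 0.09, adjusted p = 1.82e-05), from 65.3 to 114 CPM in ntg (median 84.2) to 50.3 to 66.2 CPM in TG (median 55.3), overlapping only between 65.3 and 66.2 CPM. Ryr2, Trdn, Jph1 and Jph2 did not pass in either comparison, with log2 differences between -0.33 and 0.13. The sham values of Ryr2 did not overlap, at 1994 to 2158 CPM in ntg and 1734 to 1956 CPM in TG hearts.

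These counts are 2 higher and 2 lower of 10 in sham RISC libraries, where 5.81% of 13451 tested genes passed (2.71% higher and 3.1% lower), and 3 higher and 3 lower in TAC RISC libraries, where 15.2% passed (7.78% higher and 7.46% lower). Without a single sham heart the sham count was 2 or 3: it was 2 without ntg sham replicate 1 or 3 and without TG sham replicate 2 or 3. The relation of gene level to exon length differed between the genotypes in TAC RISC libraries, with a slope of 0.0784 ± 0.0379 in ntg and -0.0502 ± 0.0518 in TG hearts (SD, n = 7, log2 CPM per log2 base, relative to all RISC libraries). The slopes did not overlap, at 0.0189 to 0.129 in ntg and -0.110 to 0.0126 in TG hearts, so a fit with the slope cannot separate it from genotype. With that slope as a covariate 1 of the 6 TAC calls remained, Ryr1, and 175 genes passed in all. The log2 differences of the other 5 were then -0.39 for Cacna1c (SE 0.13), -0.49 for Casq2 (SE 0.18), 0.62 for Ryr3 (SE 0.37), 0.44 for Cacna1s (SE 0.28) and -0.33 for Casq1 (SE 0.15). Those of Cacna1s and Casq1 were smaller than without the covariate by more than 1.5 times, and that of Cacna1c was close to 1.5 times larger. Whether the TG effect differed between TAC and sham RISC libraries gave 0 of 10 by edgeR and by DESeq2, with 46 genes (0.342%) passing in all by edgeR and 2 of the 10, Ryr3 and Casq1, below an unadjusted p of 0.05.

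**Figure D4:**
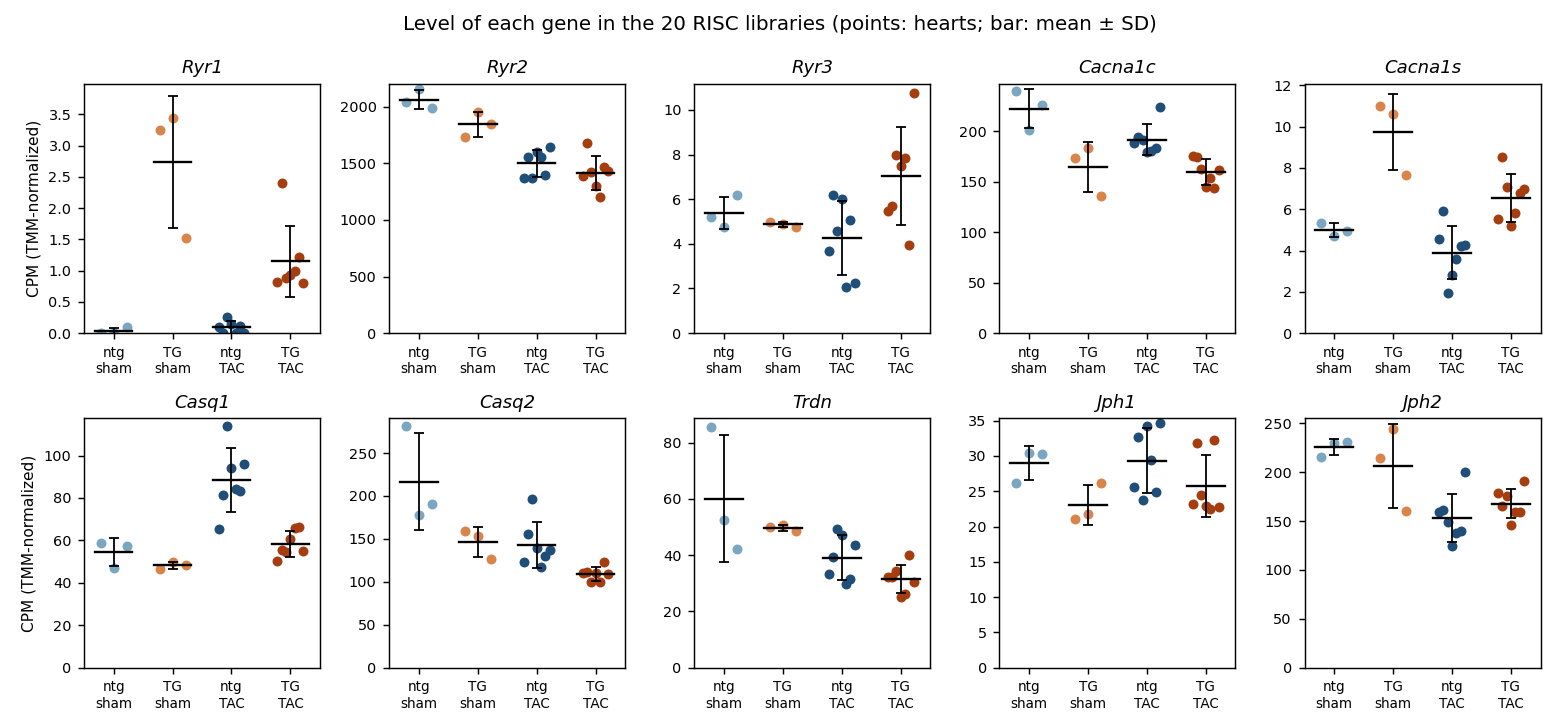
Level of the 10 genes in the 20 RISC libraries, in TMM-normalized CPM on linear axes that start at 0, by genotype and by sham or TAC label. Points are hearts and bars are the mean ± SD of 3 sham or 7 TAC hearts; Cacna1c lies lower in TG than in ntg hearts under either label, and Casq1 in TAC hearts.

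Whether a message was more or less bound to Ago2 than its mRNA level would give was tested in 1 model of all 40 libraries. The mRNA and RISC library of a heart entered it as separate samples, so its SEs and intervals ignore that pairing. The RISC difference less the mRNA difference, TG over ntg, passed for 0 of the 10 genes in sham hearts, where 35 of 14372 genes (0.244%) passed, and for 0 in TAC hearts, where 136 (0.946%) passed, by edgeR. DESeq2 also called 0 in each, and so did edgeR with the heart as a block. Below an unadjusted p of 0.05 lay 1 gene in each, Jph2 in sham hearts at -0.50 (SE 0.18, adjusted p = 0.267) and Casq1 in TAC hearts at -0.37 (SE 0.14, adjusted p = 0.194). For Cacna1c, which passed in RISC and not in mRNA, the difference was -0.22 in sham, with an interval of 2 SE from -0.54 to 0.10, and -0.13 in TAC hearts, from -0.33 to 0.08. The intervals of Ryr1 were wide, from -0.79 to 4.01 in sham and from -1.04 to 1.39 in TAC hearts. Across the 20 hearts the mean log2 ratio of RISC to mRNA CPM, each normalized within its kind of library, ran from -2.36 for Trdn and -1.87 for Jph2 to -0.23 for Ryr3 and -0.16 for Jph1. Those values lie at percentiles 14.6, 26.6, 80.7 and 82.2 of 10160 genes with a mean mRNA level of at least 5 CPM.

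The junctional list gave 2 higher and 4 lower of 13 tested genes in sham RISC libraries, and 2 higher and 2 lower in TAC RISC libraries, beside 5.81% and 15.2% of all tested genes. S100a1 rose by 0.66 in sham (SE 0.14, adjusted p = 0.00229) and by 0.73 in TAC hearts (SE 0.09, adjusted p = 6.39e-07). Asph fell by 0.47 in sham (SE 0.11, adjusted p = 0.00533) and by 0.56 in TAC hearts (SE 0.07, adjusted p = 7.97e-07). Srl fell by 0.50 (SE 0.13, adjusted p = 0.0199) and 0.43 (SE 0.09, adjusted p = 0.000864). Sorcin (Sri), a calcium-binding modulator of Ryr2, fell by 0.56 in sham hearts (SE 0.16, adjusted p = 0.0331). Tmem38b, a cation channel of the reticulum, rose by 3.13 in TAC RISC libraries (SE 0.71, adjusted p = 0.00686), but its counts ran from 1432 to 30999 in ntg and from 15638 to 212549 in TG libraries, so its spread within a group was wide. The L-type list gave 0 calls among 13 tested genes in sham and in TAC RISC libraries.

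TAC against sham was described within each genotype, with the difference in sex-linked RNA named above, and all its differences are log2 fold changes, TAC over sham. In ntg mRNA 1 of the 10 genes was higher and 4 were lower after TAC, where 17.7% of genes passed (8.41% higher and 9.31% lower), and in TG mRNA 2 were higher and 3 were lower, where 13.1% passed (6.57% higher and 6.56% lower). Casq1 was higher in TAC, 179 to 257 CPM (median 194) against 110, 136 and 124 CPM in ntg sham hearts, a log2 difference of 0.74 (SE 0.13, adjusted p = 0.000399), and by 0.44 in TG hearts (SE 0.13, adjusted p = 0.0248). The TG value of Casq1 lost its call without TG sham replicate 1 (adjusted p = 0.134) or 3 (0.0919). Cacna1s was lower at -0.55 in ntg (SE 0.15, adjusted p = 0.014) and -0.61 in TG hearts (SE 0.14, adjusted p = 0.00573), the ntg call being lost without ntg sham replicate 1 (0.0930). Ryr2 was lower in ntg hearts at -0.36 (SE 0.07, adjusted p = 0.00158), a call that every omission of 1 heart kept, and in TG hearts the difference was -0.20 (SE 0.08, adjusted p = 0.0792). Jph2 differed by -0.28 in ntg (SE 0.09, adjusted p = 0.0394) and -0.34 in TG hearts (SE 0.09, adjusted p = 0.0186), and Casq2 by -0.24 in ntg hearts (SE 0.08, adjusted p = 0.0379). The ntg calls of Casq2 and Jph2 were lost on omitting any 1 of 7 and of 6 of the 10 hearts, to an adjusted p of up to 0.146 and 0.253, and the TG call of Jph2 without TG sham replicate 3 (0.132). The summed adipocyte markers did not overlap between ntg sham (934 to 1156 CPM) and ntg TAC mRNA libraries (532 to 872 CPM). A fit with their level therefore cannot separate it from the TAC label. With the adipocyte level as a covariate 1 of the 5 ntg calls remained, Casq1. The differences of the other 4 were then -0.30 for Ryr2 (SE 0.10), -0.48 for Cacna1s (SE 0.21), -0.27 for Jph2 (SE 0.13) and -0.17 for Casq2 (SE 0.11), with larger SEs than without the covariate. The summed cardiomyocyte markers given above were also lower in ntg TAC than in ntg sham mRNA, without overlap, with 1 of 9 higher and 5 lower, and their part was not tested.

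Ryr1 and Ryr3 moved in opposite directions with TAC in TG hearts. Ryr1 was lower in TG TAC than in TG sham mRNA at -0.89 (SE 0.25, adjusted p = 0.0213), a call lost without TG sham replicate 1 (0.0846) or 2 (0.124). Ryr3 was higher by 1.00 (SE 0.30, adjusted p = 0.0323), a call lost on omitting any 1 of 5 of the 10 hearts, to an adjusted p of up to 0.134. In ntg hearts their differences were 0.04 (SE 0.64) and 0.48 (SE 0.34) and did not pass. In RISC libraries 1 of the 10 genes was higher and 4 were lower after TAC in ntg hearts, where 10.9% of genes passed (5.54% higher and 5.39% lower), and 0 were higher and 3 lower in TG hearts, where 8.56% passed (4.72% higher and 3.84% lower). Casq1 was again higher in ntg hearts, by 0.70 (SE 0.12, adjusted p = 0.000197), and Ryr2 lower, at -0.46 (SE 0.09, adjusted p = 0.001). Ryr2 was lower at -0.39 in TG hearts (SE 0.09, adjusted p = 0.00702), without TG sham replicate 2 at an adjusted p of 0.0671. Trdn was lower at -0.61 in ntg (SE 0.18, adjusted p = 0.0306) and -0.65 in TG hearts (SE 0.18, adjusted p = 0.0249). The ntg call of Trdn was lost on omitting 1 of 4 hearts, at -0.27 (adjusted p = 0.364) without ntg sham replicate 1, and the TG call on omitting any TG sham heart (0.0780 to 0.0950). Casq2 was lower at -0.60 in ntg (SE 0.13, adjusted p = 0.00217; 0.0883 without ntg sham replicate 1) and -0.42 in TG hearts (SE 0.13, adjusted p = 0.0349; lost on omitting 1 of 5 hearts). Jph2 was lower at -0.56 in ntg hearts (SE 0.11, adjusted p = 0.00134). With the length slope as a covariate 1 of the 5 ntg RISC calls remained, Ryr2. That slope did not overlap between ntg sham (-0.0387 to -0.00616) and ntg TAC hearts (0.0189 to 0.129), so the fit cannot separate it from the TAC label. The other 4 differences were then -0.53 for Casq2 (SE 0.17), -0.49 for Trdn (SE 0.25), 0.49 for Casq1 (SE 0.15) and -0.32 for Jph2 (SE 0.14), the last smaller by more than 1.5 times.

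**Figure D5:**
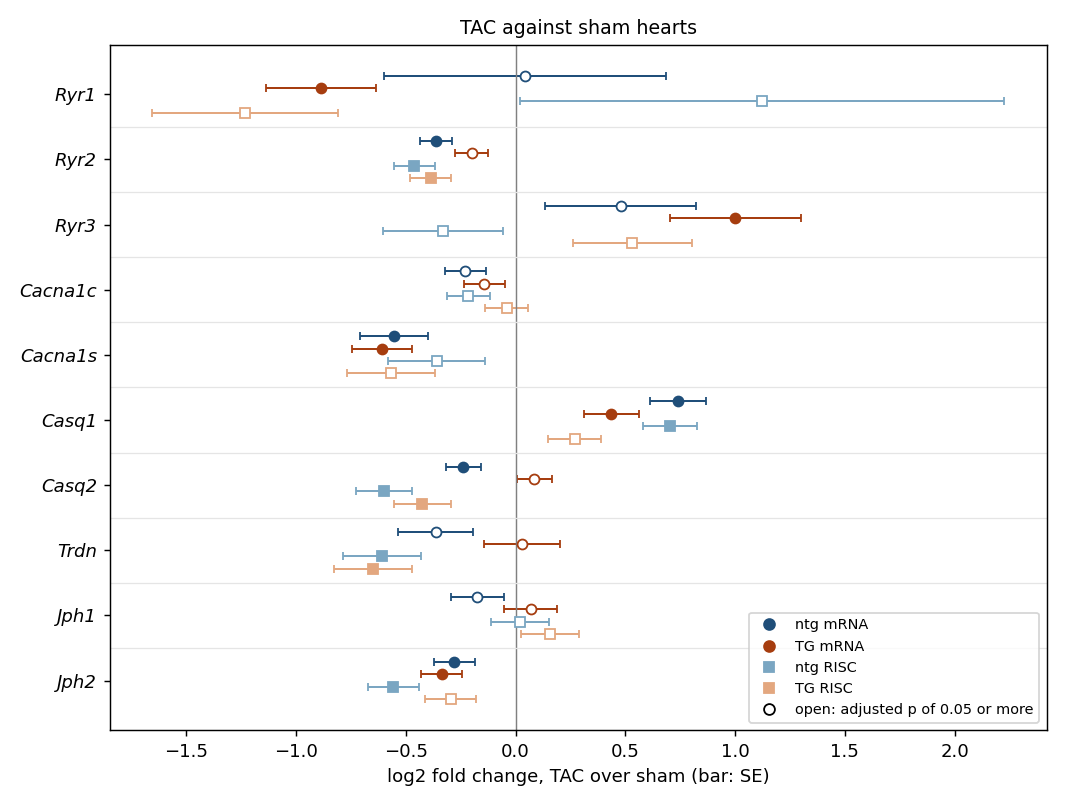
Log2 fold change, TAC over sham, of the 10 genes in ntg and TG hearts, in mRNA (circles) and RISC libraries (squares), with bars of 1 SE. Filled symbols passed an adjusted p of 0.05; Casq1 lies to the right in all 4 comparisons and passed in 3, and sham and TAC hearts also differ in sex-linked RNA.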

How the data were processed

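The deposited values are raw read counts per gene symbol, 1 file for each of 40 libraries (20 hearts, mRNA and RISC). Per the submitters' processing notes, the authors aligned reads to mm10, with TopHat2 2.0.10 and Bowtie2 named, and counted with HTSeq; DESeq and edgeR are also named. The libraries are single-end and unstranded per the labels' protocols, so antisense reads cannot be separated; no exon of the 10 genes overlaps another gene's exons. The 5 rows that name no gene, 10.1% to 15.8% of mRNA and 2.57% to 6.20% of RISC reads, were left out. The authors' combined tables, with 40 columns, were not used.

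Counts were filtered with filterByExpr, scaled with TMM and tested with the robust quasi-likelihood test of edgeR 4.0.16 in R 4.3.3, with 1 fit of all 4 groups for each kind of library and 1 of all 40 libraries for RISC relative to mRNA. p was adjusted by Benjamini-Hochberg over all tested genes, and a gene passed at an adjusted p below 0.05. The SE is the log2 fold change divided by the root of F. The common biological coefficient of variation was 12.9% in mRNA and 16.6% in RISC. Exon lengths are unions from the authors' deposited gene models.

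The members and gene lists were chosen with earlier results of these data known. Named list genes are the called members with the smallest p, at most 4 per comparison of TG with ntg. Alternatives were DESeq2 1.42.0, relative log expression factors, no filter, RISC without Rn45s, the compared groups only, a replicate block, adipocyte level (mRNA) or length slope (RISC) as a covariate, and each heart left out.

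A replicate number joins the mRNA and RISC library of 1 heart (the file names share an animal code). Their residuals from the group means correlated at a median of 0.176 over 7797 genes, above 0.1 in 16 of 20 hearts. Nothing in the labels says that a number pairs hearts across genotypes. Hearts are taken as separate animals from their codes. On simulated sham counts with known log2 changes, the test recovered 93% of 100 genes changed by 1 in mRNA and 80% in RISC. It recovered 100% of those changed by 2, with 3.5% of calls false in mRNA and 6.25% in RISC. Whether these rates hold for each of the 10 genes, or for log2 changes below 1, was not tested. Nor were they tested with as many genes changed as passed in these hearts, 18.6% in sham mRNA. In ntg sham RISC libraries Ryr1 held 0, 0 and 2 counts. There the SD was 26.1% of the mean CPM for Casq2 and 37.8% for Trdn. For the others apart from Ryr1 it ran from 3.66% (Jph2) to 13.4% (Ryr3).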

Additional observations from a re-analysis of the deposited data

Results flagged for a closer look

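Among the 40 sets of 7 TAC libraries (10 genes, 2 genotypes and 2 kinds of library), 2 held a library that stood apart from the others, where chance flags about 1 set in 20. Ryr1 in TG TAC RISC replicate 2 was at 2.40 CPM, above the other 6 libraries at 0.802 to 1.21 CPM. Without that heart the log2 fold change of Ryr1, TG over ntg, in TAC RISC libraries was 3.20 and still passed (adjusted p = 5.55e-05). Cacna1c in ntg TAC RISC replicate 7 was at 224 CPM, above the others at 180 to 194 CPM. Without that heart the log2 difference of Cacna1c in TAC RISC libraries was -0.22 and did not pass (adjusted p = 0.0533).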

How the results depend on the processing

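The TG against ntg calls of Ryr1, and in mRNA those of Cacna1s and Casq2, held under every alternative run. Of 38 member results that passed, 0 reversed under any alternative. The 5 calls of TAC against sham in ntg mRNA became 3 with no filter, 3 with a replicate block and 1 with the adipocyte covariate. The 5 in TG mRNA became 3 with the compared groups only and 2 with the replicate block. In RISC libraries the 5 of ntg hearts became 3 with the replicate block and 1 with the length slope as a covariate, and the 3 of TG hearts became 5 with the compared groups only and 1 with the replicate block. The 6 calls of TG against ntg in TAC RISC libraries became 1 with the length slope, where Jph2 reversed to -0.18. The cause was not tested. For same-numbered ntg and TG hearts, pairing required residuals correlated above 0.1 in every pair, which was not met: 0 of 3 sham and 2 of 7 TAC pairs did in mRNA, and 1 of 3 and 4 of 7 in RISC, where the 7 TAC pairs ran from 0.055 to 0.182 and 2 of 3 sham hearts correlated best with their own number. With the replicate block the TG against ntg counts were 5 and 6 in mRNA, Casq1 in TAC hearts being added at -0.23 (adjusted p = 0.0465), and 3 and 5 in RISC, and with the heart as the block 0 and 0 genes passed for RISC relative to mRNA.

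Leaving out 1 heart at a time gave 3 to 5 calls for TG against ntg in sham mRNA, 2 to 3 in sham RISC, 3 to 5 for TAC against sham in ntg mRNA, 2 to 5 in TG mRNA, 3 to 5 in ntg RISC and 0 (without TG sham replicate 2) to 5 (without TG TAC replicate 2) in TG RISC. Differences of TG against ntg that had not passed and changed sign were Casq1 in sham mRNA (-0.0397 to 0.151), Trdn in TAC mRNA (-0.0809 to 0.0565) and sham RISC (-0.474 to 0.0728), Jph1 in TAC mRNA (-0.0756 to 0.00854) and Jph2 in sham RISC (-0.263 to 0.0293). DESeq2 gave no adjusted p for Ryr1 in TAC against sham TG RISC, in the RISC difference of effects and in RISC relative to mRNA. Depth limits Ryr1 in ntg hearts, where RISC libraries held 0 to 4 counts.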
